A study of Mus musculus with 15 samples.

Results

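The expression of 10 genes of MHC class I presentation and the immunoproteasome was examined in naïve mouse brain and in 4 syngeneic glioma models. The genes were chosen by symbol and were matched to Ensembl identifiers, and all 10 of them were present among the 46679 genes of the series. RNA had been sequenced from 15 samples, with 3 mice in each of 5 groups, and all mice were C57BL/6. At 6 to 8 weeks of age the tumor-bearing mice had been implanted in the right hemisphere. The dose was 100000 cells for CT2A, GL261 and 005, and for Mut3 it was 500000. CT2A (wild-type p53) and GL261 (mutant K-ras and p53) were lines induced by methylcholanthrene. 005 carries activated H-ras and AKT on a p53+/- background, and in Mut3 NF1 and p53 are inactivated. All 4 lines carried GFP and firefly luciferase, and each model is a single line, so the mice of a group share 1 line of tumor cells. Perfused tumor tissue was taken at the humane end point, and control tissue was naïve brain. The question was whether the class I machinery differed between naïve brain and the tumors. It was also asked between the tumors the study called immunologically active (GL261 and 005) and inert (CT2A and Mut3). The study drew this split from the same RNA sequencing data, so tests across it are not independent of how it was made.

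MHC class I molecules show peptides from inside the cell to CD8 T cells. The proteasome cuts proteins into peptides, and under interferon gamma the catalytic subunits Psmb8, Psmb9 and Psmb10 take the places of Psmb5, Psmb6 and Psmb7 to form the immunoproteasome. The transporter made of Tap1 and Tap2 moves peptides into the endoplasmic reticulum, where tapasin (Tapbp) helps to load them onto a heavy chain (H2-K1 or H2-D1 in C57BL/6 mice) paired with the light chain B2m. Nlrc5 is the transactivator of the class I genes. Resting neurons and glia are known for low class I expression.

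In GRCm38 and GENCODE M21, 7 of the 10 genes lie in the MHC region of chromosome 17. From the lower coordinate upward they are Tapbp (chr17:33915899-33929292), H2-K1 (chr17:33996017-34000347), Psmb9 (chr17:34181987-34187764), Tap1 (chr17:34187553-34197225), Psmb8 (chr17:34197721-34201454), Tap2 (chr17:34203527-34216321) and H2-D1 (chr17:35262730-35267499). B2m lies on chr2:122147686-122153083, and Nlrc5 (chr8:94434356-94527272) and Psmb10 (chr8:105935735-105938444) lie on chromosome 8. H2-K1 and H2-D1 are related genes of similar sequence, so the split of their reads is uncertain. Their transcripts were not compared here. Psmb9 and Tap1 share 212 exonic bases on opposite strands. Antisense or neighbouring genes share 904 and 149 exonic bases with Tapbp (Gm19412 and Zbtb22), 498 with Psmb8 (Gm20496), 533 and 165 with Tap2 (Gm15821 and Gm20496) and 78 with Nlrc5 (9330175E14Rik). Whether the counting used strand is not given in the sources used here, so reads in these stretches could belong to either gene.

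The stretches before the RefSeq starts of the heavy and light chain genes are shown because these genes are co-regulated in textbook accounts through the same short motifs. Sequences are from RefSeq on GRCm38.p6, written 5′ to 3′ on the strand of the gene. Capitals mark matches, on either strand, to an IRF motif (AANNGAAA) or the NF-kB motif. They also mark a CRE-like motif (TGACG), the CCAAT box and the GAS motif, which was searched for as TTCNNNGAA. The H2-K1 stretch is chr17:34000348-34000477 (minus strand), that of H2-D1 is chr17:35262904-35263033 (plus strand) and that of B2m is chr2:122147517-122147646 (plus strand).
H2-K1: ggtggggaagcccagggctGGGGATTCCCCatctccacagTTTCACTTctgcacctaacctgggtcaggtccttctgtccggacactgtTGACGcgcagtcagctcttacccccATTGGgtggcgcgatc
H2-D1: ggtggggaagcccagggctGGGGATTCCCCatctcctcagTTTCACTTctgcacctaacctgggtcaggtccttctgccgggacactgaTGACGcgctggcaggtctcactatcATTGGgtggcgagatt
B2m: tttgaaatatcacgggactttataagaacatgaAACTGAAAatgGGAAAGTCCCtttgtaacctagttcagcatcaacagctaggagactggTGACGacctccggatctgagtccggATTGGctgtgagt

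The H2-K1 and H2-D1 stretches were identical at 117 of 130 aligned bases (90.0%). In both, overlapping NF-kB matches came first, then an IRF match, a CRE-like match and a CCAAT box. B2m held the same 4 motifs, with the IRF match ahead of the NF-kB match. Among 32841 RefSeq promoters, the 250 bases before the start held the IRF motif in 21.3%, the NF-kB motif in 7.25%, the CRE-like motif in 17.8%, the CCAAT box in 33.9% and the GAS motif in 7.02%.

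Tap1 and Psmb9 are transcribed away from each other, and their RefSeq starts are 225 bases apart. The whole interval, chr17:34187331-34187555, is shown on the strand of Tap1 because it lies before both RefSeq starts. It held a CCAAT box and a CRE-like match, and no IRF, NF-kB or GAS match. By the GENCODE M21 coordinates this interval lies within Psmb9. The H2-D1 stretch above and the Psmb8 stretch below likewise lie within the GENCODE M21 spans of their genes. The Psmb8 stretch, chr17:34198055-34198134 (plus strand), is shown for the GAS match, a motif known from interferon gamma responses.
Tap1 and Psmb9: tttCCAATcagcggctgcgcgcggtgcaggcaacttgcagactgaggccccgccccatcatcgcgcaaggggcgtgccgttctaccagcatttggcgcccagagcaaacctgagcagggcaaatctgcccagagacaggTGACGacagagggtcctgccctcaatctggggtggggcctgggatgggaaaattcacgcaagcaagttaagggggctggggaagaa
Psmb8: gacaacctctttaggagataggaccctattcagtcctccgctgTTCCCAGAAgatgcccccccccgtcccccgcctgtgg

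Tapbp held 2 CCAAT boxes in its 250 bases, and Psmb10 held none of the 5 motifs. A match is a run of letters and was not tested as a binding site.

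Levels are given as CPM, counts scaled to library size by edgeR's TMM factors, which compare a gene across samples. Total counts were from 3105070 to 5161252 in naïve brain and from 5380577 to 13130030 in the tumors, so that 3 counts correspond to 0.214 to 0.811 CPM. Each of the 10 genes had at least 4 counts in every sample and all 10 passed the filter on low counts. Mitochondrial transcripts took 14.97% to 23.97% of counts in naïve brain and 3.48% to 17.8% in the tumors. Markers of neurons summed to between 3253 and 5325 CPM in naïve brain. 005 replicate 3 stood apart from the other tumors, since its neuronal markers summed to 2870 CPM, against 36.4 to 1456 in the others, and its mitochondrial share was the highest of the tumors. The summed level of 3 leukocyte markers (Ptprc, Coro1a, Laptm5) was 20.9 to 27.4 CPM in Mut3, 35.4 to 40.2 in naïve brain, 64.4 to 102 in CT2A, 104 to 447 in 005 and 122 to 196 in GL261. The labels name no sequencing batch. In this bulk tissue, fewer cells of a type and less RNA per cell cannot be told apart.

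Most class I and immunoproteasome genes rose in every tumor line over naïve brain, whereas Tap2 and Tapbp missed the threshold in some lines and Psmb10 rose in GL261 alone, and not on the TPM scale. A gene was called DE where edgeR's quasi-likelihood test over 17481 genes gave an adjusted p under 0.05 (Benjamini-Hochberg) and levels differed at least 2-fold. Against naïve brain, 8 of the 10 genes were DE and higher in CT2A (19.0% of all tested genes were), 10 in GL261 (14.6%), 9 in 005 (11.6%) and 7 in Mut3 (17.9%). None of the 10 was DE and lower in any line, where 20.2% (CT2A), 7.77% (GL261), 1.05% (005) and 19.8% (Mut3) of all tested genes were. The median log2 fold change over the 10 genes was 3.45 (CT2A), 3.96 (GL261), 3.44 (005) and 2.41 (Mut3), beside -0.04, -0.08, 0.01 and 0.11 over all tested genes. These 4 comparisons share the same naïve samples. For 7 genes (B2m, H2-K1, H2-D1, Tap1, Nlrc5, Psmb8 and Psmb9) all 12 tumors lay above all 3 naïve brains, which was the case for 7.80% of tested genes. Tap2 did so in 11 tumors, Tapbp in 9 and Psmb10 in 4. All 10 genes differed among the 5 groups at an adjusted p under 0.05 (52.1% of tested genes did), with adjusted p from 0.000749 for H2-K1 to 0.00592 for Psmb10. Without 005 replicate 3, 9 genes were called in 005, and without 005 replicate 2 there were 8. With only the samples compared in the fit, 4 were called in 005, and Tap1, Tap2, Tapbp, Nlrc5 and Psmb8 were lost (adjusted p = 0.0510 to 0.0822). In limma on log2(TPM + 1), 9 genes each were called in GL261 and 005, 7 in CT2A and 5 in Mut3, in either direction. The calls in CT2A and in Mut3 included Psmb10, which was lower than in naïve brain there.

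**Figure D1:**
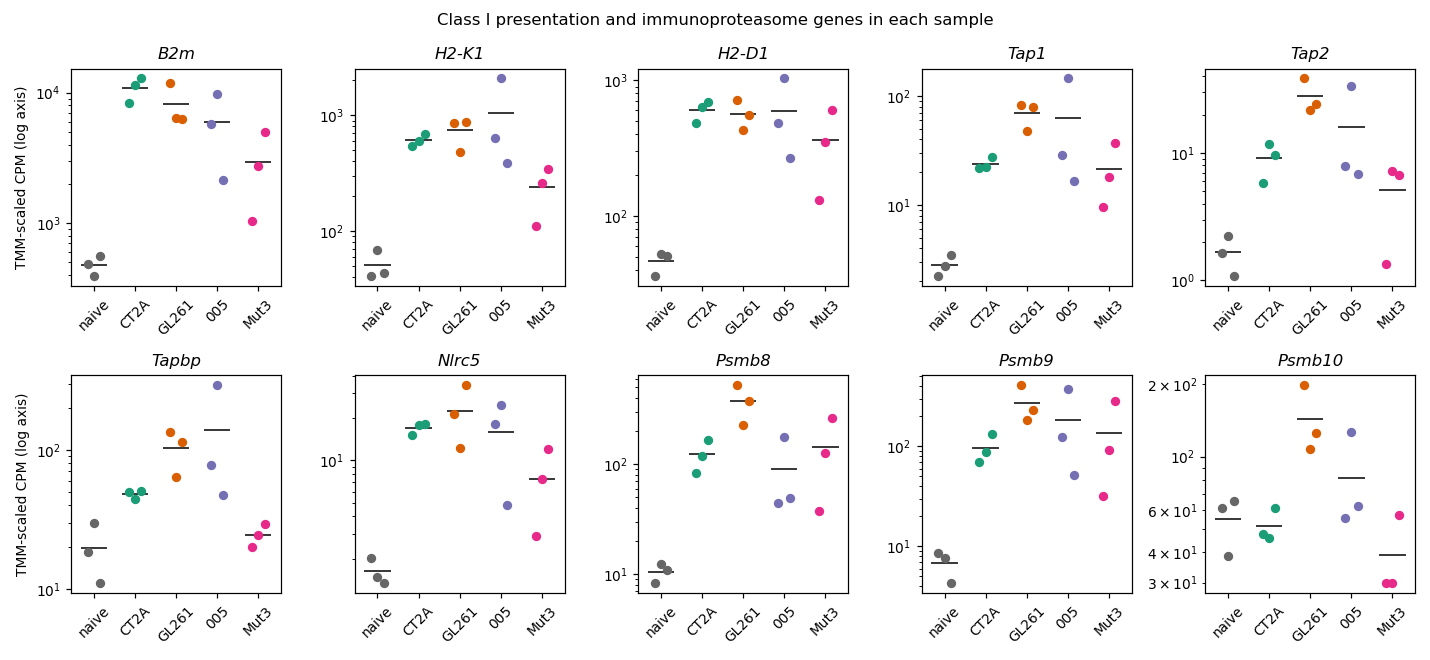
TMM-scaled CPM (log axis, a separate scale in each panel) of the 10 genes in each sample, with points for the 3 mice of a group and a line at the group mean. For 7 genes all 12 tumors lie above the naïve brains, whereas the Psmb10 points of CT2A, 005 and Mut3 overlap those of naïve brain.

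B2m, the light chain shared by all class I molecules, was at 483, 395 and 564 CPM in naïve brain. It was at 8353, 11458 and 12827 in CT2A and at 11928, 6389 and 6259 in GL261. In 005 it was at 5745, 9826 and 2129, and in Mut3 at 1039, 2763 and 4961. The lowest tumor, Mut3 replicate 1, was thus above the highest naïve brain, and the CT2A and Mut3 samples did not overlap. B2m rose 22.6-fold in CT2A (log2 fold change 4.50 ± 0.62 SE, adjusted p = 0.000336), 17.0-fold in GL261, 12.3-fold in 005 and 6.08-fold in Mut3 (adjusted p = 0.000614, 0.00210 and 0.00293).

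H2-K1, a heavy chain, was at 41.0, 69.0 and 43.3 CPM in naïve brain. It was at 539.9, 604 and 693 in CT2A, at 859, 482 and 874 in GL261, at 639, 2077 and 390.0 in 005 and at 111, 261 and 342 in Mut3. 005 replicate 2 was the highest sample, and the Mut3 samples lay below all other tumors. The rise over naïve brain was 20.3-fold in 005 (log2 fold change 4.34 ± 0.61 SE, adjusted p = 0.00177), 14.5-fold in GL261, 11.98-fold in CT2A and 4.66-fold in Mut3. The Mut3 call of H2-K1 was lost in limma on log2(TPM + 1) and log2(TPM + 0.1), where the log2 fold change was 1.26 and 1.29 (adjusted p = 0.0650 and 0.0604) against 2.22 in edgeR. H2-D1, the other heavy chain, was at 36.1, 52.1 and 50.3 CPM in naïve brain and between 427 and 719 in CT2A and GL261. It was at 488, 1032 and 268 in 005 and at 131, 349 and 607 in Mut3, so these lines overlapped. H2-D1 rose 12.3-fold in GL261, 12.9-fold in 005, 13.1-fold in CT2A and 7.85-fold in Mut3 (adjusted p = 0.000743, 0.00182, 0.000512 and 0.00106), the narrowest range among the 3 chains.

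The ratio of the TPM of H2-K1 to that of H2-D1, which was looked at after the values were seen and has no test, was 1.21, 1.08 and 0.811 in Mut3. It lay between 1.24 and 2.89 in the other samples and was highest in 005, at 1.88, 2.89 and 2.09. TPM values are scaled by gene length, but the lengths behind the authors' TPM differ from the annotated ones, since that of B2m was 1.45 times that of H2-K1 where its annotated exons are 0.293 times as long. Ratios of a gene pair can therefore be compared between samples, whereas their absolute size rests on the authors' lengths.

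Tap1 and Tap2 form the peptide transporter. Tap1 was at 2.24, 2.74 and 3.52 CPM in naïve brain, at 21.7, 22.5 and 27.6 in CT2A and at 83.1, 48.2 and 78.6 in GL261. It was at 28.6, 145 and 16.7 in 005 and at 9.51, 18.1 and 36.9 in Mut3. All GL261 samples were above all CT2A and Mut3 samples, and the 005 samples spread from below the CT2A samples to the highest tumor. Tap1 rose 24.7-fold in GL261 (log2 fold change 4.63 ± 0.77 SE, adjusted p = 0.00118), 22.3-fold in 005, 8.47-fold in CT2A and 7.61-fold in Mut3. In limma on log2(TPM + 1) the calls in CT2A and Mut3 were lost (adjusted p = 0.0555 and 0.0848). Tap2 was low in naïve brain, at 1.63, 2.24 and 1.08 CPM. It was at 5.86, 11.8 and 9.56 in CT2A, at 38.5, 21.8 and 24.4 in GL261, at 7.93, 33.7 and 6.84 in 005 and at 1.34, 7.17 and 6.77 in Mut3. Tap2 rose 16.9-fold in GL261, 9.62-fold in 005 and 5.42-fold in CT2A, but Mut3 replicate 1 lay within the naïve range and the Mut3 difference missed the threshold (log2 fold change 1.61 ± 0.72 SE, adjusted p = 0.0879). The CT2A call of Tap2 was lost on both TPM scales (adjusted p = 0.165 and 0.0832) and without naïve replicate 3 (adjusted p = 0.0554). Without 005 replicate 2 the Tap2 call in 005 was lost (adjusted p = 0.0571), and without Mut3 replicate 1 or without 005 replicate 2 Tap2 was called in Mut3 (adjusted p = 0.0292 and 0.0381).

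Tapbp, which encodes the loading chaperone tapasin, was at 18.6, 29.6 and 11.1 CPM in naïve brain. It was at 134, 64.3 and 114 in GL261 and at 77.8, 291 and 47.6 in 005, all above naïve brain. In CT2A it was at 49.8, 44.6 and 50.6, and in Mut3 at 20.1, 24.4 and 29.1, within the naïve range. Tapbp rose 7.01-fold in 005 (log2 fold change 2.81 ± 0.58 SE, adjusted p = 0.00609) and 5.25-fold in GL261 (adjusted p = 0.00961). The log2 fold change was 1.29 ± 0.55 SE in CT2A (adjusted p = 0.0730) and 0.31 ± 0.55 SE in Mut3 (adjusted p = 0.672). CT2A did not overlap naïve brain, and its call was gained without naïve replicate 2, 005 replicate 2 or 005 replicate 3 (adjusted p = 0.0395, 0.0139 and 0.0360) and with DESeq2 (adjusted p = 0.0442).

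Nlrc5, the transactivator, was at 2.04, 1.49 and 1.35 CPM in naïve brain, at 15.02, 17.9 and 18.1 in CT2A and at 21.3, 12.3 and 34.1 in GL261. It was at 18.1, 24.6 and 4.84 in 005 and at 2.91, 7.42 and 11.96 in Mut3, with 005 replicate 3 and Mut3 replicate 1 the lowest tumors. Nlrc5 rose 13.6-fold in GL261 (log2 fold change 3.77 ± 0.67 SE, adjusted p = 0.00170), 10.2-fold in CT2A, 9.54-fold in 005 and 4.50-fold in Mut3 (adjusted p = 0.0160). The Mut3 call was lost without Mut3 replicate 3 (adjusted p = 0.0802), without naïve replicate 3 (adjusted p = 0.0524) and on the TPM scale.

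Psmb8 and Psmb9, the inducible catalytic subunits encoded beside the Tap genes, showed the largest fold changes of the 10 genes in GL261 and in Mut3. Psmb8 was at 8.36, 12.5 and 10.8 CPM in naïve brain, at 83.3, 119 and 167 in CT2A and at 521, 227 and 373 in GL261. It was at 44.1, 175 and 49.8 in 005 and at 37.9, 127 and 262 in Mut3. GL261 samples were above those of CT2A and 005, whereas Mut3 spread across the range of both. Psmb8 rose 35.4-fold in GL261 (log2 fold change 5.15 ± 0.74 SE, adjusted p = 0.000478), 13.5-fold in Mut3, 11.7-fold in CT2A and 8.51-fold in 005 (adjusted p = 0.00115, 0.00202 and 0.00843).

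Psmb9 was at 8.57, 7.72 and 4.33 CPM in naïve brain, at 69.1, 87.4 and 134 in CT2A and at 408, 184 and 232 in GL261. It was at 123, 379 and 51.3 in 005 and at 31.8, 91.5 and 283 in Mut3. The spread within Mut3 and within 005 exceeded the distance between their means. Psmb9 rose 39.6-fold in GL261 (log2 fold change 5.31 ± 0.87 SE, adjusted p = 0.00107), 26.7-fold in 005, 19.6-fold in Mut3 and 13.98-fold in CT2A.

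Psmb10, the inducible subunit encoded outside the MHC, was already at 61.0, 38.9 and 65.2 CPM in naïve brain. It was at 198, 107 and 125.1 in GL261, above all naïve samples, and at 55.8, 126 and 62.5 in 005. In CT2A it was at 47.7, 45.8 and 61.5, and in Mut3 at 30.0, 29.9 and 57.3. Psmb10 rose in GL261 alone (2.604-fold, log2 fold change 1.38 ± 0.39 SE, adjusted p = 0.0213), with a log2 fold change of 0.57 ± 0.38 in 005, -0.09 ± 0.38 in CT2A and -0.49 ± 0.38 in Mut3 (adjusted p = 0.309, 0.867 and 0.319). These calls depended on the scaling. In limma on log2(TPM + 1), where the median of all tested genes moved to between -0.38 and -0.23 against naïve brain, Psmb10 was called lower in CT2A (log2 fold change -1.005, adjusted p = 0.0186) and in Mut3 (-1.28, adjusted p = 0.00590), and the GL261 call was lost (0.54, adjusted p = 0.178). The GL261 call was also lost without naïve replicate 1 or 2 or without GL261 replicate 1 or 3 (adjusted p = 0.0502 to 0.0794).

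**Figure D2:**
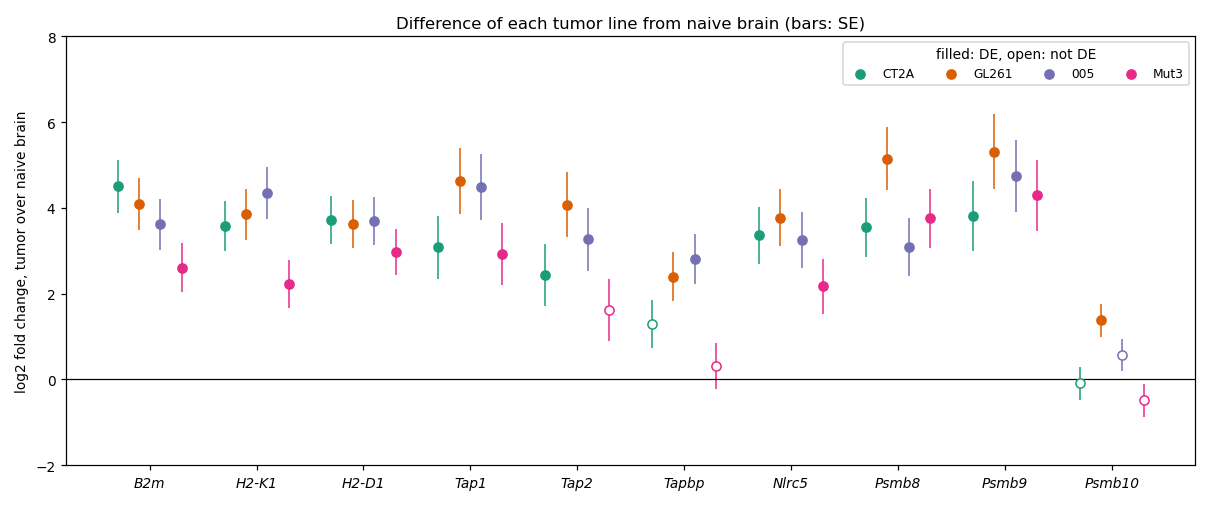
Log2 fold change over naïve brain (y axis) of each gene in the 4 tumor lines, from edgeR's quasi-likelihood fit, with bars of 1 SE and filled points where DE. Psmb8 and Psmb9 in GL261 reach 5.15 and 5.31, whereas Psmb10 lies between -0.49 and 1.38, and on the TPM scale Psmb10 was called lower in CT2A and Mut3 and was not called in GL261.

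The exchange of constitutive for inducible catalytic subunits was examined as the ratio of their TPM within each sample, which does not depend on library scaling. Psmb8 to Psmb5 was 0.0292, 0.0421 and 0.0406 in naïve brain. It was 0.511, 0.884 and 1.36 in CT2A, 2.04, 0.896 and 1.60 in GL261, 0.202, 0.632 and 0.205 in 005 and 0.141, 0.520 and 1.51 in Mut3. All 12 tumors exceeded all naïve brains, with a mean log2 difference of 4.10 (two-sided exact permutation test, p = 0.0044, the smallest these groups allow, adjusted p = 0.0132 over 6 tests). Psmb9 to Psmb6 was 0.0276, 0.0403 and 0.0116 in naïve brain and between 0.0608 (Mut3 replicate 1) and 1.02 (005 replicate 2) in the tumors, with a mean log2 difference of 3.94 (12 of 12 tumors above, exact permutation p = 0.0044, adjusted p = 0.0132). Psmb10 to Psmb7 did not separate the groups. It was 0.632, 0.700 and 0.501 in naïve brain, 0.337, 0.298 and 0.393 in CT2A, 1.31, 0.932 and 1.21 in GL261, 0.305, 0.778 and 0.700 in 005 and 0.235, 0.219 and 0.398 in Mut3. GL261 thus lay above and CT2A and Mut3 below naïve brain, and the difference of all tumors from naïve brain was -0.30 on the log2 scale (exact permutation p = 0.580, adjusted p = 0.696). Within single lines, 3 against 3 samples cannot give a p below 0.10 and no test was made.

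**Figure D3:**
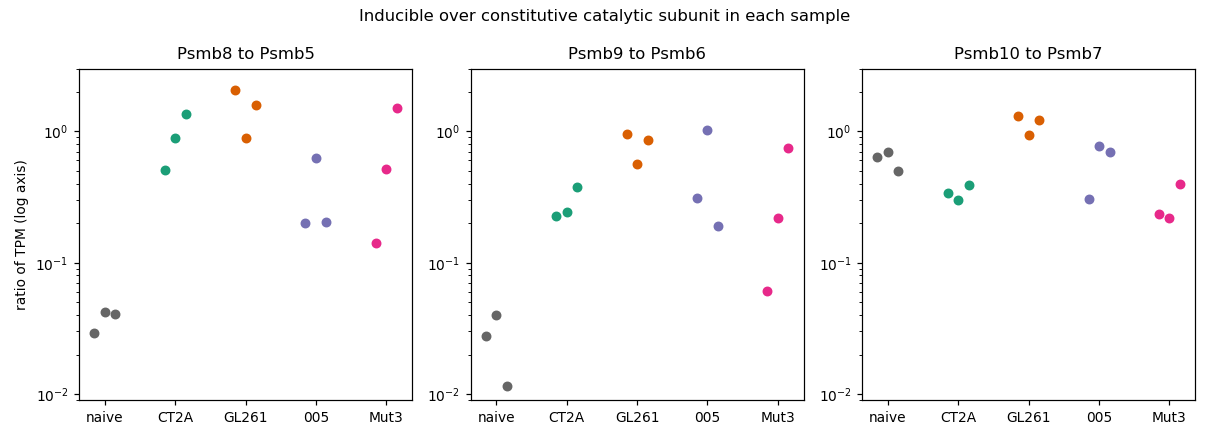
Ratio of the TPM of each inducible subunit to that of the constitutive subunit it replaces (log axis) in the 3 samples of each group. All tumors lie above naïve brain for Psmb8 to Psmb5 and Psmb9 to Psmb6, whereas for Psmb10 to Psmb7 only the GL261 samples all exceed naïve brain.

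Among the constitutive subunits, Psmb5 fell in CT2A (log2 fold change -1.01, adjusted p = 0.00487), and neither Psmb6 nor Psmb7 was DE in any line. Between GL261 and 005 on the one hand and CT2A and Mut3 on the other, Psmb10 to Psmb7 differed by 1.37 on the log2 scale (exact permutation p = 0.00866, adjusted p = 0.0173). 5 of the 6 active tumors exceeded every inert one. The mean log2 ratio was 0.19 in GL261, -0.86 in 005, -1.55 in CT2A and -1.86 in Mut3, beside -0.72 in naïve brain. The permutation pools the mice of both lines of a class, so its p-value measures spread between mice and not between lines. The same contrast was 1.176 for Psmb9 to Psmb6 (exact permutation p = 0.0931, adjusted p = 0.140) and 0.03 for Psmb8 to Psmb5 (exact permutation p = 0.968), and the sign of the latter turned when single samples were left out. The TPM ratio of Psmb8 to Psmb9, looked at after the values were seen and not tested, was 0.111, 0.144 and 0.302 in 005, 0.287 to 0.430 in Mut3, 0.374 to 0.423 in CT2A and 0.383 to 0.499 in GL261.

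Between the tumor lines, differences were fewer than against naïve brain. They lay in Tapbp, Tap2, H2-K1 and Psmb10, while B2m differed only between CT2A and Mut3. H2-D1, Tap1, Nlrc5, Psmb8 and Psmb9 were not DE in any pair. GL261 exceeded Mut3 in 4 of the 10 genes (11.1% of tested genes were higher). These were Psmb10 (3.66-fold, adjusted p = 0.00620), Tapbp (4.23-fold, adjusted p = 0.0211), Tap2 (5.52-fold, adjusted p = 0.0215) and H2-K1 (3.10-fold, adjusted p = 0.0496). 005 exceeded Mut3 in Tapbp (5.65-fold, adjusted p = 0.00876) and H2-K1 (4.35-fold, adjusted p = 0.0161), which is 2 of the 10 genes (14.0% of tested genes). CT2A exceeded Mut3 in B2m (3.72-fold, adjusted p = 0.0366), which is 1 of the 10 (6.61%). CT2A was lower than GL261 in Psmb10 (2.77-fold, adjusted p = 0.0309), again 1 of the 10 (3.62%).

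No gene of the 10 was DE between CT2A and 005 (4.11% of tested genes in either direction) or between GL261 and 005 (2.62%). At an unadjusted p under 0.05 in edgeR there were 2 in each of these pairs, Tap1 and Tapbp between CT2A and 005 and Psmb8 and Psmb10 between GL261 and 005. DESeq2 called 0 of the 10 between CT2A and 005 and 1, Psmb8, between GL261 and 005 (log2 fold change 2.07, adjusted p = 0.0277), and limma on either TPM scale called 0 in both pairs. In edgeR, Psmb8 was 4.16-fold higher in GL261 than in 005 (adjusted p = 0.117), and the samples of the lines did not overlap.

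Psmb10 between GL261 and Mut3 and Tapbp between 005 and Mut3 kept their calls with any library left out, though the latter was lost with only the samples compared in the fit (adjusted p = 0.0601). The other calls between lines were lost without at least 1 library. The H2-K1 call between GL261 and Mut3 was lost in 11 of 15 such fits, those that left out 1 of the naïve, CT2A or GL261 samples or Mut3 replicate 1 or 2 (adjusted p = 0.0524 to 0.147). It was also lost with library-size scaling (adjusted p = 0.0611), with mitochondrial genes left out (0.0602) and in limma on log2(TPM + 1) (0.0517). The H2-K1 call between 005 and Mut3 was lost without 005 replicate 2 or Mut3 replicate 1 (adjusted p = 0.0902 and 0.0647). In GL261 against Mut3 the count of 4 became 8 without Mut3 replicate 3, the Mut3 sample with the highest level of every member but Tap2, and 7 without 005 replicate 3, but 1 without Mut3 replicate 1 and 2 without GL261 replicate 1 or 3 or Mut3 replicate 2. The B2m call between CT2A and Mut3 was lost without CT2A replicate 2 or 3 or Mut3 replicate 1 or 2, and the Psmb10 call between CT2A and GL261 without any of the CT2A samples or GL261 replicate 1 or 3.

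**Figure D4:**
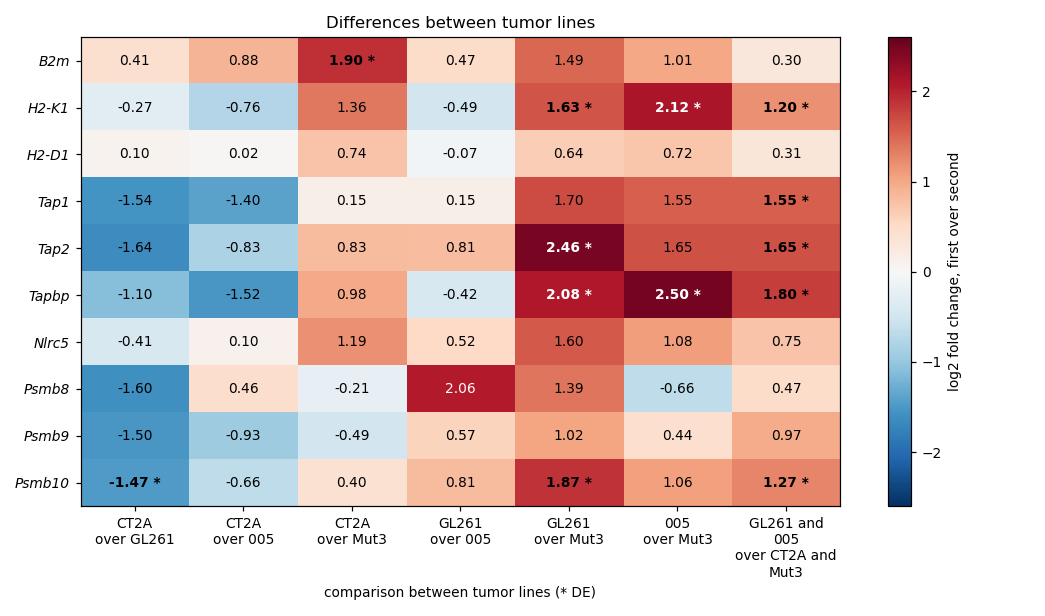
Log2 fold change of the first over the second line or pair of lines (colour and printed value) for the 10 genes, with an asterisk where DE. Tapbp is highest in 005 against Mut3, at 2.50, whereas H2-D1 stays between -0.07 and 0.74 in all 7 comparisons. H2-D1, Nlrc5, Psmb8 and Psmb9 carry no asterisk.

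Taking the active tumors together (GL261 and 005), 5 of the 10 genes were DE and higher than in the inert tumors (CT2A and Mut3), where 12.6% of tested genes were, and 0 were lower (4.29%). The 3 genes of transport and loading were among them, namely Tapbp (3.48-fold, log2 fold change 1.80 ± 0.39 SE, adjusted p = 0.00720), Tap2 (3.13-fold, adjusted p = 0.0218) and Tap1 (2.93-fold, adjusted p = 0.0283). The others were Psmb10 (2.404-fold, adjusted p = 0.00691) and H2-K1 (2.29-fold, adjusted p = 0.0371). B2m and H2-D1 had log2 fold changes of 0.30 ± 0.38 SE and 0.31 ± 0.35 SE (adjusted p = 0.603 and 0.558). Nlrc5 (0.75 ± 0.40), Psmb9 (0.97 ± 0.51) and Psmb8 (0.47 ± 0.43) also missed the threshold (adjusted p = 0.191, 0.180 and 0.461). Tapbp and Psmb10 kept their calls with any library left out. Without 005 replicate 2 these were the only 2 genes called, and H2-K1 was 0.69 and Tap1 0.81 on the log2 scale. Without any CT2A sample, GL261 replicate 1 or 3, or Mut3 replicate 1 or 2, 3 genes were called. Since the study drew the active and inert classes from these same data, the contrast is not an independent test of them. The spread in these tests is that between mice of a line and not that between lines.

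Markers of leukocytes moved with this contrast. Ptprc, which encodes CD45, was at 85.6, 37.7 and 47.1 CPM in GL261 and at 46.2, 260.6 and 50.1 in 005. It was at 19.5, 37.4 and 37.2 in CT2A, at 9.40, 2.26 and 11.1 in Mut3 and at 4.49, 1.74 and 1.89 in naïve brain. 005 replicate 2 had the highest Ptprc as well as the highest H2-K1, H2-D1, Tap1 and Tapbp. The other members were highest in samples with less Ptprc. These were GL261 replicate 1 for Tap2, Psmb8, Psmb9 and Psmb10, GL261 replicate 3 for Nlrc5 and CT2A replicate 3 for B2m. Of 7 macrophage and monocyte markers, the number DE and higher than in naïve brain was 5 (CT2A), 6 (GL261), 7 (005) and 1 (Mut3). Of 6 tested T cell markers it was 4, 4, 5 and 0. DE and lower were 1 macrophage marker in Mut3 and, in both CT2A and Mut3, 1 T cell marker and 1 leukocyte marker. Of 6 microglia markers, 3 in CT2A and 5 in Mut3 were DE and lower, and 0 in GL261 and 005. In naïve brain the summed level was 31.6 to 58.7 CPM for macrophage and monocyte markers and 4.08 to 30.9 CPM for T cell markers. The latter range overlapped that of CT2A (22.2 to 48.1 CPM) and lay below all GL261 and 005 samples. The sum of NK cell markers reached 14.6 CPM in naïve replicate 3, above all Mut3 samples and within the CT2A range, and was lower in the other naïve brains. Of the listed T and NK cell markers, Cd5 and Ncr1 were at 0 in all naïve brains, and Cd5 was also at 0 in all Mut3 samples. The part of leukocytes in the levels of the 10 genes was not tested. In Mut3, the sum of the 3 leukocyte markers lay below that of naïve brain in all samples, although Ptprc, 1 of the 3, was higher in 2 of them. T cell markers were at 6.82 to 18.1 CPM in Mut3, and macrophage and monocyte markers were at 37.7, 99.8 and 135 CPM, above all naïve brains in 2 samples.

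Other genes of the pathway, taken from lists of the pathway's other parts, moved to different degrees. The counts of genes that rose stand beside shares over all tested genes of 14.6% in GL261, 11.6% in 005, 19.0% in CT2A and 17.9% in Mut3. For genes that fell, these shares were 7.77% in GL261, 1.05% in 005, 20.2% in CT2A and 19.8% in Mut3. Among 14 tested nonclassical class I genes and relatives, 9 rose in GL261, 9 in 005, 8 in CT2A and 5 in Mut3, and 1 fell in CT2A and 1 in Mut3 (H2-M5 in both). H2-T22 was at 11.2, 19.4 and 19.7 CPM in naïve brain and rose in all 4 lines, with mean levels of 313 in GL261, 272 in CT2A, 145 in 005 and 98.8 in Mut3. H2-T10 was at the floor in naïve brain (0.204, 0.249 and 0 CPM) and at 28.2, 27.8 and 34.2 in CT2A, 41.0, 21.8 and 30.3 in GL261, 11.2, 9.78 and 4.27 in 005 and 1.68, 9.31 and 12.9 in Mut3. The Qa-2 genes were highest in CT2A, where H2-Q7 was at 93.2, 114 and 122 CPM and H2-Q6 at 56.7, 68.3 and 86.3, against at most 88.2 and 26.8 in 005, 30.9 and 18.2 in GL261 and at most 9.499 and 5.41 in Mut3. H2-M2 was at 16.6, 1.62 and 11.4 CPM in GL261 and at 9.68, 224 and 28.8 in 005, but at or near the floor elsewhere, with at most 0.612 in naïve brain, 0.310 in CT2A and 2.37 in Mut3. H2-T23, which encodes Qa-1, was not DE in any line and had log2 fold changes from 0.08 to 0.67. Many class I genes of this kind are near-identical to another, and the split of reads between such genes is uncertain.

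The proteasome activator PA28, whose subunits are Psme1 and Psme2, opens the core particle of the proteasome. Psme2 rose in all 4 lines, with log2 fold changes of 3.80 in GL261, 3.14 in 005, 2.03 in CT2A and 1.62 in Mut3 (adjusted p = 0.000501, 0.00233, 0.00719 and 0.0201). Psme1 rose in GL261 (2.74) and 005 (2.22) and was at 0.94 in CT2A and 0.46 in Mut3 (adjusted p = 0.111 and 0.440). Both were higher in the active than in the inert tumors, by 1.77 for Psme1 (adjusted p = 0.00318) and 1.65 for Psme2 (adjusted p = 0.00713). Of the 8 activators and assembly factors, 3, 2, 2 and 4 rose in CT2A, GL261, 005 and Mut3. Of 11 subunits of the shared 20S core 6, 2, 0 and 4 rose in the same order of lines, with median log2 fold changes of 1.12, 0.86, 0.71 and 0.89.

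Among 13 chaperones and peptide-trimming enzymes, 4 rose in GL261, 1 in 005, 4 in CT2A and 2 in Mut3, and the shares in 005 and Mut3 were below those over all tested genes. Erap1, the aminopeptidase that trims peptides in the endoplasmic reticulum, rose by 2.77, 2.91 and 2.38 on the log2 scale in CT2A, GL261 and 005 (adjusted p = 0.00222, 0.00253 and 0.0103) and had a log2 fold change of 1.07 in Mut3 (adjusted p = 0.120). Pdia3, a partner of tapasin in the loading complex, rose by 1.63 in CT2A and 1.09 in GL261, and Calr and Canx were not DE in any line.

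Of 16 regulators of class I genes, 8 rose in GL261, 7 in 005, 7 in CT2A and 5 in Mut3. Irf1, which binds the IRF motif, was at 8.36, 11.2 and 8.11 CPM in naïve brain. It was at 249, 102 and 177 in GL261, 73.1, 237 and 30.3 in 005, 34.6, 38.3 and 65.5 in CT2A and 16.8, 26.3 and 34.7 in Mut3. It rose in CT2A, GL261 and 005 and missed the threshold in Mut3 (log2 fold change 1.49, adjusted p = 0.0602). Ezh2 and Eed, subunits of the repressive Polycomb complex PRC2 that is known to silence class I genes, rose in all 4 lines, Ezh2 by 4.05, 3.97, 3.30 and 4.28 on the log2 scale in CT2A, GL261, 005 and Mut3. Between active and inert tumors, 4 of the 16 regulators were DE and higher (12.6% of tested genes were) and 0 were lower. Among the 4 were Irf1 (log2 fold change 2.03), Stat2 (1.81) and Irf2 (1.01). The median over the 16 was -0.11, and 7 of them had a positive log2 fold change.

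Of 6 genes of interferon gamma signalling, 1 rose in CT2A, 1 in GL261 and 2 in 005, and 2 fell in Mut3. The counts in CT2A and GL261 were near the shares of all tested genes that rose, and 19.8% of tested genes fell in Mut3. Ifng itself was at most 0.270 CPM in naïve brain, 0.977 in CT2A and 0.377 in Mut3, near the level of 3 counts, and its highest level was 9.54 CPM in 005 replicate 2. Socs1, a target that restrains the pathway, rose in CT2A, GL261 and 005. In Mut3, Jak1 and Ifngr2 fell, by 1.45 and by 1.19 on the log2 scale (adjusted p = 0.00476 and 0.00723). Of 6 receptor genes of cells that read class I, 6 rose in each of CT2A, GL261 and 005 and 0 in Mut3, where 6 of 6 had positive log2 fold changes that missed the threshold. Each of them was DE and higher in the active tumors, for example Cd8a (log2 fold change 2.43, adjusted p = 0.00494) and Klrd1 (2.69, adjusted p = 0.00251), and in naïve brain their CPM were near the floor.

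**Figure D5:**
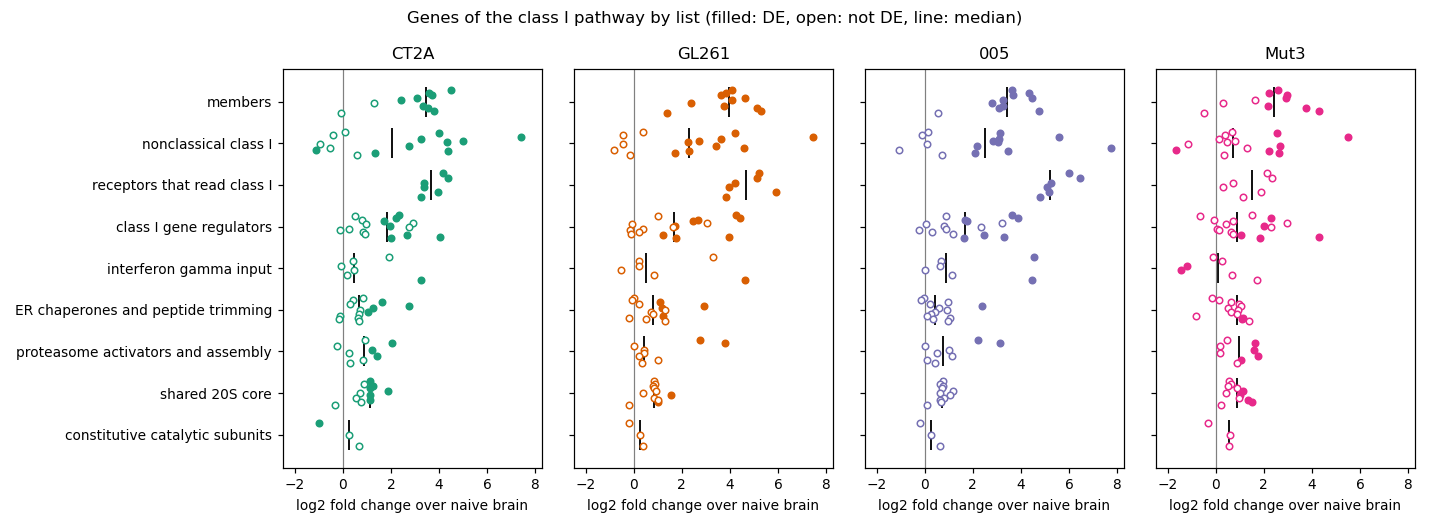
Log2 fold change over naïve brain (x axis) of each tested gene in 9 lists (rows) for the 4 lines, with filled points where DE and a line at the list median. The median over the 10 genes is 3.45, 3.96, 3.44 and 2.41 (CT2A, GL261, 005 and Mut3), above those of the 20S core and the constitutive subunits. The receptors that read class I have medians of 3.67, 4.68, 5.22 and 1.51, above the 10 genes in all lines but Mut3. Psmb10 is the lowest of the 10 in every panel, and on the TPM scale it was called lower in CT2A and Mut3 and was not called in GL261.

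Over the 15 samples, the genes whose pattern was most like that of the 10 genes were found by the root mean square (RMS) difference between their z-score of log2 CPM and the standardized mean z-score of the 10 genes. The 10 closest genes outside the set were Gbp3 (RMS difference 0.184), Gbp7, Parp9, Gbp2, Ctsh, Gm4951, Irf1, Ifi47, Gm12250 and C3ar1 (0.279). Gbp3, a guanylate-binding protein, averaged 10.6 ± 0.724 CPM over the naïve brains (SD, n = 3 here and below). It averaged 398 ± 148 CPM in GL261, 230.3 ± 240.2 in 005, 215 ± 22.3 in CT2A and 56.7 ± 31.4 in Mut3. Among the 10 genes, Tap1 was the closest to their mean (RMS difference 0.190) and ranked 2 of all tested genes, whereas Tapbp ranked 209 and Psmb10 ranked 1963 (0.802). The mean z-score was -1.602 to -1.460 in naïve brain, -1.01 to 0.31 in Mut3, 0.16 to 0.51 in CT2A, -0.19 to 1.39 in 005 and 0.65 to 1.33 in GL261, so naïve brain did not overlap any tumor and the Mut3 and CT2A ranges met.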

How the data were processed

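RNA was sequenced from naïve brain and from CT2A, GL261, 005 and Mut3 tumors (3 mice each, 15 samples). According to the labels, the authors aligned the reads with STAR v2.4.2a to the GENCODE mouse genome and marked duplicates with Picard tools, and the submitters' processing notes name Salmon, DESeq2 1.18.1 and mm10. The deposited tables hold expected counts (estimated, not normalized between samples) and TPM values, scaled to gene length and to the same total in each sample. For 4644 genes with over 50 counts in every sample, the deposited count over TPM split into a gene factor and a sample factor, with residuals of at most 9.6e-10 on the log2 scale, so both tables hold the same measurement.

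The tests used edgeR 4.0.16 in R 4.3.3 on rounded expected counts (filterByExpr, TMM, quasi-likelihood test, all 15 samples, a mean per group, no covariate). P-values were adjusted over 17481 genes by Benjamini-Hochberg. SE is the log2 fold change divided by the square root of F. Ratios were log2 of TPM with a pseudocount of 0.1 and were compared by exact permutation tests. Replicates are different mice, and no 2 samples agreed within sampling noise. Identifiers were matched to GENCODE M21 (46201 of 46679), and promoters to RefSeq on GRCm38.p6 (8 of the 10 genes). Steps were tested on simulated data. The named genes are the 10 members, the fixed pathway lists and the 10 genes of most similar pattern. The members and lists were chosen with earlier results of these data known. Replicate numbers in the labels name different mice. Intervals of depth cover counting error only. Alternatives were library-size scaling, other filters, mitochondrial genes left out, a replicate block, a fit of only the samples compared, DESeq2 1.42.0, limma 3.58.1 on log2(TPM + 1) and log2(TPM + 0.1), other pseudocounts, no fold threshold and each replicate left out. Some genes and alleles are not reported here.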

Additional observations from a re-analysis of the deposited data

Results flagged for a closer look

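In 4 pairs of tumor lines, some of the 10 genes differed from naïve brain to different degrees, as shown by edgeR's test of the difference between the lines themselves. Between CT2A and GL261 this was 1 gene, Psmb10, with a log2 fold change of -1.47 ± 0.39 SE (adjusted p = 0.0309, lower in all CT2A samples), beside 3.62% of tested genes lower. Between CT2A and Mut3 it was 1 gene, B2m, at 1.897 ± 0.56 SE (adjusted p = 0.0366, higher in all CT2A samples), beside 6.61% of tested genes higher. Both calls were lost with the replicate block (adjusted p = 0.0527 and 0.0615) and without most single CT2A, GL261 or Mut3 samples of their pair. GL261 and Mut3 differed in 4 genes, H2-K1, Tap2, Tapbp and Psmb10, at 1.63, 2.46, 2.08 and 1.87, beside 11.1% of tested genes higher. 005 and Mut3 differed in 2 genes, H2-K1 at 2.12 and Tapbp at 2.50, beside 14.0% of tested genes higher. A count of 1 or 2 of the 10 genes is near these shares. Leukocyte markers also differed between these lines, at 64.4 to 102 CPM in CT2A, 122 to 196 in GL261, 104 to 447 in 005 and 20.9 to 27.4 in Mut3, and their part in these differences was not tested.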

How the results depend on the processing

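Of 130 counts and ratios recomputed under the alternatives other than leaving out a replicate, 121 stayed within 1.5 times the reported count or on the same side of the threshold. With only the samples compared in the fit, the number of the 10 genes called was 4 in 005 against naïve brain, 6 in CT2A against GL261, 2 in CT2A against Mut3, 0 in 005 against Mut3 and 3 in GL261 and 005 against CT2A and Mut3. That fit has fewer samples to estimate the spread. GL261 against 005 gave 1 with no filter on low counts and 1 with DESeq2. Samples that share a replicate number were not paired, since their deviations from the group means correlated by -0.331 to 0.262 (1 of 30 pairs above 0.1). With the replicate block, 0 genes were called in CT2A against GL261 and 0 in CT2A against Mut3, and H2-K1 was lost between active and inert tumors. Leaving out each replicate in turn gave 7 to 9 calls in CT2A, 9 to 10 in GL261, 8 to 9 in 005 and 6 to 8 in Mut3 against naïve brain. The range was 0 to 2 for CT2A against GL261, 0 to 1 for CT2A against 005, 0 to 2 for CT2A against Mut3, 0 to 1 for GL261 against 005, 1 to 8 for GL261 against Mut3, 1 to 4 for 005 against Mut3 and 2 to 6 for active against inert tumors. For active against inert tumors, the Psmb8 to Psmb5 ratio ranged from -0.407 to 0.363 and was -0.302, -0.064 and -0.231 without GL261 replicate 1, 2 or 3, -0.037 without CT2A replicate 1, and -0.407 and -0.032 without Mut3 replicate 1 or 2. The Psmb9 to Psmb6 ratio ranged from 0.776 to 1.498 and passed without 005 replicate 3 (exact permutation p = 0.0303) or Mut3 replicate 3 (p = 0.0390). Of 2618 single log2 fold changes, 2494 kept their call and direction, 45 gained and 79 lost a call, and 0 called values turned sign. The causes were not tested. Depth limits Tap2 and Nlrc5 most, which had 4 and 5 counts in their lowest samples.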
